A study of Mus musculus with 12 samples.

Results

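The collagen genes and 4 genes of collagen cross-linking and matrix assembly were followed in the distal ileum of BALB/c mice, which are an inbred strain. The members were taken by symbol, as every gene named Col, a number, the letter a and a number, together with Lox, Loxl1, Loxl2 and Sparc. This gave 48 of the 45808 genes in the table, 44 of them collagens. The set was chosen with earlier results of these data known. The study set 6 libraries from mice treated with Porphyromonas gingivalis, an oral bacterium associated with periodontitis, against 6 from mice given phosphate-buffered saline (PBS), and its title asks how the bacterium leads to inflammation of the intestine. All 12 libraries were made from polyadenylated RNA of whole ileal tissue, and the labels name no genetic change in either group. The labels and the design text leave the route, dose and duration of treatment and the age and sex of the mice unstated. They also do not say that each library came from a separate mouse, so the p-values measure the spread between these samples, which may be technical.

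Collagens are long helical proteins that carry the mechanical load of the gut wall. The fibrillar types, mainly I, III and V, build the fibres of the submucosa, type IV forms the sheet of the basement membrane under the epithelium and around vessels and muscle cells, and type VI forms beaded filaments beside the cells. Fibroblasts and smooth muscle cells make most of the fibrillar collagen of the gut. Lysyl oxidases (Lox and its relatives) oxidise lysines of collagen and elastin so that neighbouring chains become covalently linked, and Sparc binds collagen and takes part in its deposition.

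Values are the authors' normalized counts, that is reads per gene divided by 1 size factor per library, so 1 unit is about 1 read. Recovered depth was 6553306 to 9875045 reads in the P. gingivalis libraries and 7610970 to 10378841 in the PBS libraries. A difference is the mean log2(normalized count + 1) after P. gingivalis less that in PBS, with its standard error as SE, from limma on the 15025 genes whose mean reached 10. Where a gene has 3 values for a group, these are its lowest, median and highest library. Fabp6, a bile acid binding protein that marks the ileum, stood at 2.52 and 16.0 in replicates 1 and 5 of the P. gingivalis group and at 4.32 in PBS replicate 6, while the remaining 9 had 11246 to 69383. Slc10a2, another ileal marker, stood at 23.9, 57.2 and 90.7 in these 3 libraries, against 1236 to 4007 in the remaining 9. Fabp1, a marker of the proximal small intestine, stood at 26745, 21996 and 16938 there, against 18.3 to 1821. These 3 libraries were thus low for both markers of the labelled region and high for a proximal one. The main differences are also given without them.

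The ileal wall held a small set of abundant collagens and a long tail of weak ones. Per kilobase of annotated exon, Col3a1, the chain of type III collagen, had the highest level of the 48 genes, with 729 ± 169.7 after P. gingivalis and 841 ± 158 in PBS (normalized counts per kb, mean ± SD, n = 6 each). Col6a1, a chain of the beaded filaments, had 425 ± 87.7 after P. gingivalis and 419 ± 90.1 in PBS. Col1a2, of type I collagen, had 324 ± 88.8 after P. gingivalis and 348 ± 71.3 in PBS, and Sparc had 305 ± 74.7 after P. gingivalis and 398 ± 52.9 in PBS. The spreads of these last 3 genes overlap, so their order lies within the spread. Col4a1 of the basement membrane and Col6a2 came next, at 229 and 185 over the 12 libraries. Of all normalized counts on collagen genes, 22.2% belonged to Col3a1 and 14 of the 44 collagens together held 90.8%.

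At the other end, 13 members had a mean below 10 and were not tested. Col10a1 of hypertrophic cartilage had 1 read in all 12 libraries and Col2a1, the main cartilage collagen, had 1 read in each group. The cross-linking enzymes stood far below Col1a2 and Col3a1. Per kb, Lox had 4.18 ± 1.28 after P. gingivalis and 6.54 ± 1.08 in PBS, Loxl1 had 14.9 ± 5.74 after P. gingivalis and 19.3 ± 2.65 in PBS and Loxl2 had 25.9 ± 3.08 after P. gingivalis and 26.6 ± 3.29 in PBS.

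**Figure D1:**
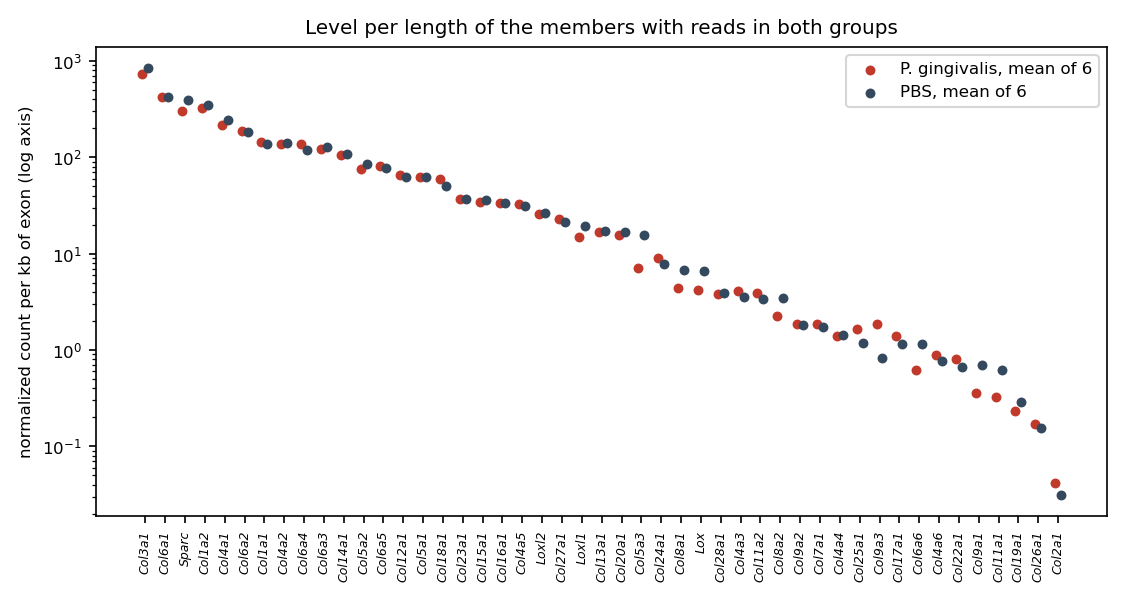
Mean normalized count per kb of exon (log axis) of each member with reads in both groups, ordered by its mean over 12 libraries, with P. gingivalis in red to the left of PBS in grey. Col3a1 leads, and the pairs of points separate visibly for Col5a3, Lox, Col8a1 and Col8a2 among the tested genes.

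No member passed the test between treated and control tissue. Limma called 0 of the 35 tested members at an adjusted p of 0.05 and 0.0% of all genes tested in either direction, and 0 of these 35 had groups that did not overlap, against 0.0932% of genes with the P. gingivalis group higher and 0.0732% with it lower. On the recovered reads edgeR also called 0 members. DESeq2 called 0 of the 43 members it tested, against 0.0164% of its genes higher and 0.164% lower. At an unadjusted p under 0.05, 4 of the 35 members were lower after P. gingivalis and 0 were higher, against 2.16% of all genes tested lower and 1.57% higher. These 4 were Col5a3, Lox, Col8a1 and Sparc, and at that level edgeR had the same 4, all lower, against 3.64% of its genes. DESeq2 had 6, against 3.53%, namely these 4 and, below the filter of the limma test, Col6a6 lower and Col9a3 higher. The limma difference was negative for 21 of the 35 members, against 51.1% of all genes, and positive for 14, against 48.9%. The median difference was -0.04 over the members and -0.00390 over all genes tested. The sign of the members' median rested on single libraries. Without P. gingivalis replicate 2 it was 0.05 with 12 of 35 negative, without P. gingivalis replicate 3 it was 0.00376 with 15 negative, and without PBS replicate 5 it was 0.00218 with 17 negative. Without P. gingivalis replicate 6 it was -0.12 with 27 negative and 8 members at an unadjusted p under 0.05. Without the 3 libraries with almost no Fabp6 it was -0.12 with 26 negative and 5 members at that level.

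**Figure D2:**
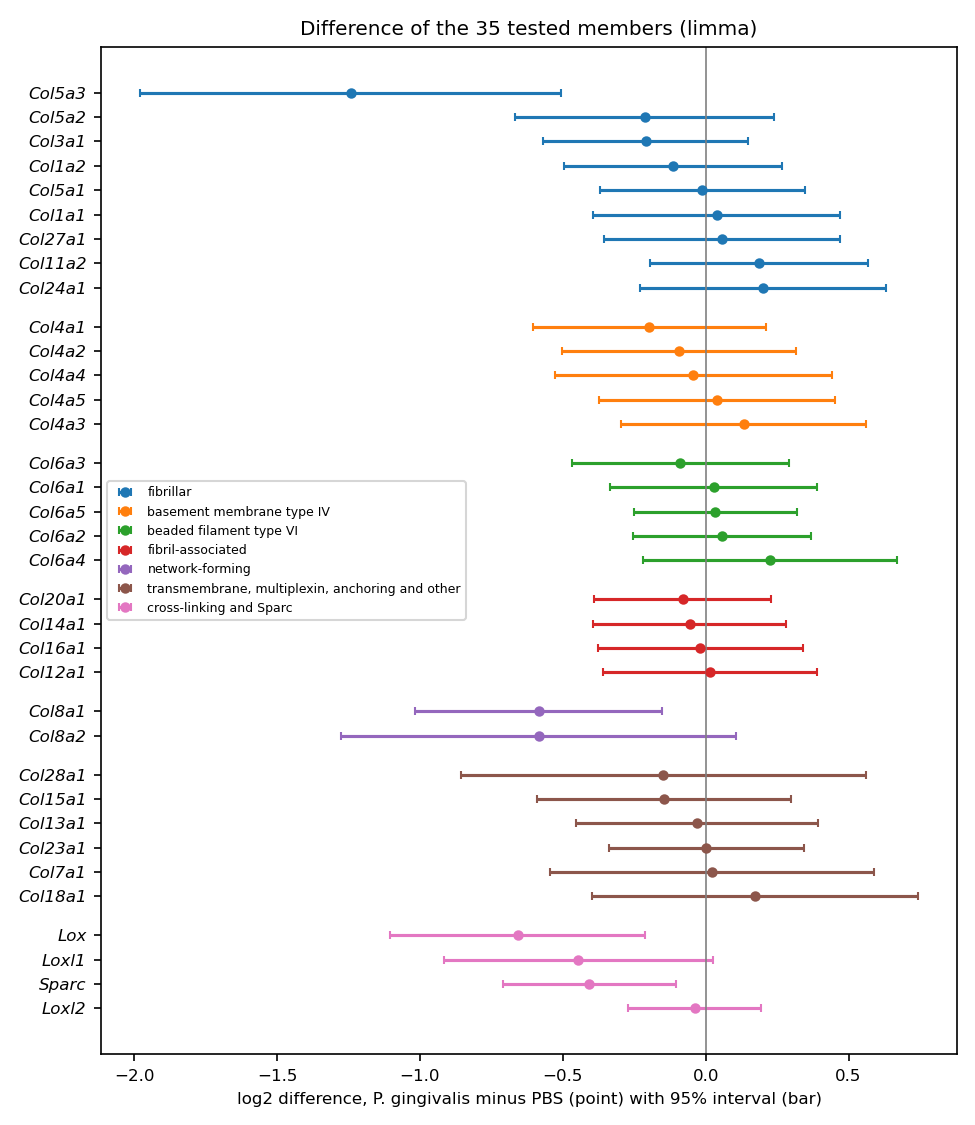
Log2 difference, P. gingivalis minus PBS, of the 35 tested members (points) with its 95% interval from limma (bars), grouped by class. The intervals of Col5a3, Col8a1, Lox and Sparc lie below 0 before adjustment, and those of the abundant type I, III, IV and VI chains span 0.

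Col5a3, a chain of type V collagen, showed the widest difference of the 35 tested members. It had 17.5, 35.1 and 79.2 normalized counts in the P. gingivalis libraries, against 48.6, 104 and 126 in the PBS libraries. In 4 of the 6 P. gingivalis libraries it lay below every PBS library, and P. gingivalis replicates 4 and 6 lay within the PBS range, so the groups overlap. The means were 43.1 ± 24.1 after P. gingivalis and 95.2 ± 29.1 in PBS (SD, n = 6 each), with a log2 difference of -1.24 (SE 0.34, limma adjusted p = 0.604). Without the 3 libraries with almost no Fabp6 the difference was -1.35. The gene lies on chromosome 9 from 20770050 to 20815117 of GRCm38. Its partners had smaller differences, of -0.01 (SE 0.17) for Col5a1 and -0.21 (SE 0.21) for Col5a2. Within a library the ratio of Col5a3 to Col5a1, which no scaling can change, was 0.0777 ± 0.0271 in the P. gingivalis libraries (range 0.0423 to 0.111) and 0.187 ± 0.0653 in the PBS libraries (range 0.0987 to 0.270), and 4 P. gingivalis libraries lay below all PBS libraries. This ratio was chosen after the values were seen and is given without a test.

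Fat cell markers varied in the same libraries. The 7 fat cell markers summed to 448 to 2299 in the P. gingivalis libraries and 1549 to 6833 in the PBS libraries. Within the P. gingivalis group, replicates 6 and 4 had the highest sums, at 2299 and 1100.04, and also the highest Col5a3, at 79.2 and 64.6. Of these markers, 5 (Adipoq, Cfd, Lep, Plin1 and Retn) were at 0 in P. gingivalis replicates 1, 2 and 3. The sums of these 3 libraries therefore came from Fabp4 and Cidec alone. Col5a3 still stood at 42.9, 27.1 and 17.5 there. Among the PBS libraries, replicate 4 had the highest sum, at 6833, and the highest Col5a3, at 126. PBS replicate 6 had the lowest Col5a3, at 48.6, with a fat cell sum of 2981. Fat cell markers were not alone in this. Within the P. gingivalis group, smooth muscle marker sums were also highest in replicates 6 and 4, at 36561 and 22010. So were fibroblast marker sums, at 6499.5 and 3787. In PBS replicate 6 these sums were the lowest of the PBS group, at 17406 and 3379. The highest PBS sums were in replicate 2 for smooth muscle and replicate 1 for fibroblasts. The 6 mesothelial markers summed to 64.3 to 135 in the P. gingivalis libraries and 154 to 347 in the PBS libraries, so these sums did not overlap. Taken singly, Upk3b alone of these genes had no overlap, at 11.3 to 28.7 after P. gingivalis and 30.9 to 120 in PBS. Over all genes tested, 0.0732% were lower without overlap. Wt1 was at 0 in P. gingivalis replicates 1 and 3. All 7 fat cell markers and all 5 tested mesothelial markers had negative differences, and none passed. Of these, Lep, Retn and Lrrn4 had a P. gingivalis mean under 10. They passed the filter through the PBS group, which favours a negative sign. The part of these cells in the collagen differences was not tested. In whole tissue, fewer cells of a type and less RNA per cell cannot be told apart.

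**Figure D3:**
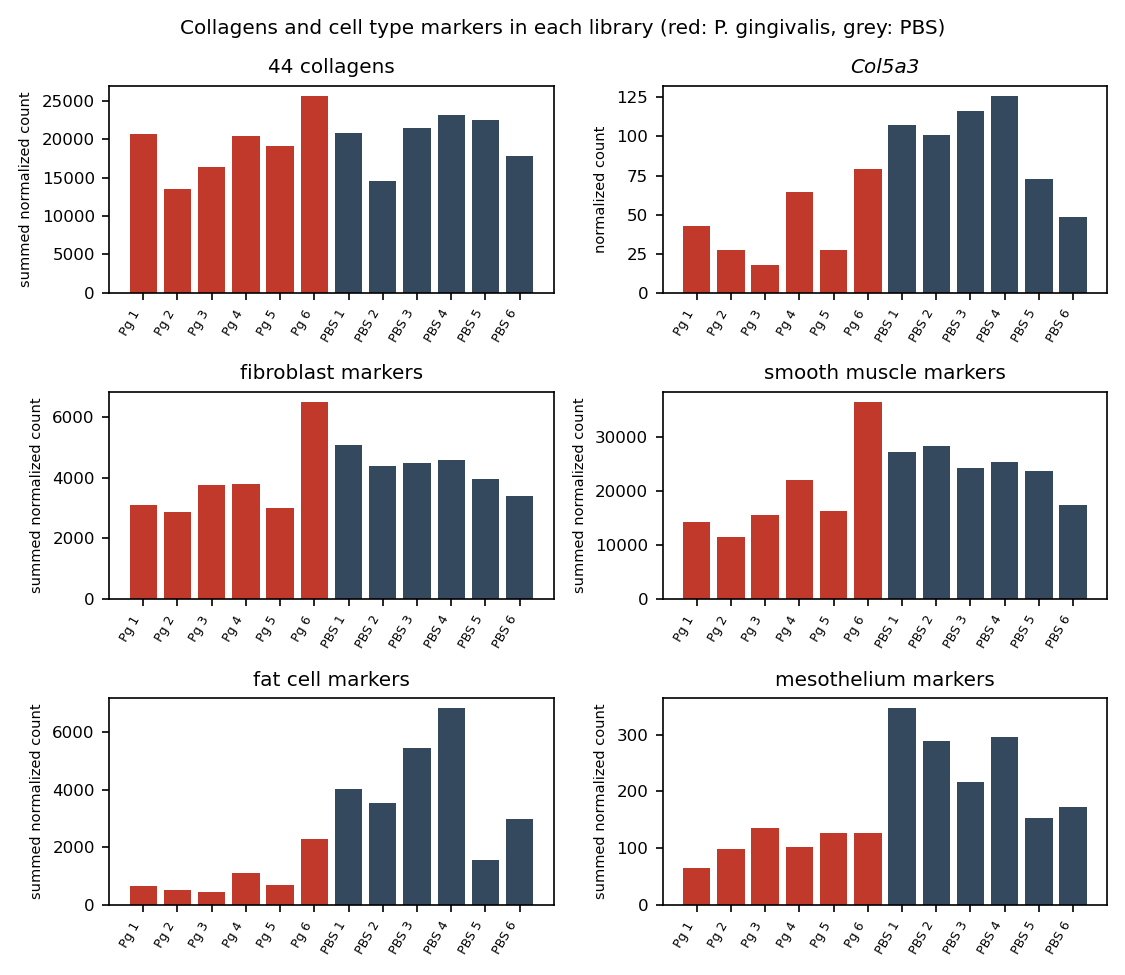
Normalized counts in each library, summed over the 44 collagens and over 4 marker lists, beside Col5a3 alone, with P. gingivalis (Pg) in red and PBS in grey. The collagen sum has much the same range in both groups, while the fat cell and mesothelial sums are low in the P. gingivalis libraries.

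The short-chain, network-forming collagens also had lower means. Col8a1, a chain of type VIII collagen that is known from vessel walls and basement membranes, had 17.6, 20.6 and 35.7 normalized counts in the P. gingivalis libraries, against 27.0, 30.1 and 46.4 in the PBS libraries. All P. gingivalis libraries but replicate 6 lay below every PBS library. The difference was -0.59 (SE 0.20, limma adjusted p = 0.992), and -0.53 without the 3 libraries with almost no Fabp6. Its partner Col8a2 had 6.30, 8.19 and 18.3 normalized counts in the P. gingivalis libraries, against 5.40, 16.2 and 20.8 in the PBS libraries. The overlap came from replicate 6 of each group, at 18.3 in P. gingivalis and at 5.40 in PBS, the lowest of all 12. The rest lay at 6.30 to 9.86 in the P. gingivalis group and at 14.4 to 20.8 in the PBS group. The difference of Col8a2 was -0.58 (SE 0.32, limma adjusted p = 0.992), and -0.67 without the 3 libraries with almost no Fabp6. Col8a2 is the one tested member with a group mean under 10, at 9.67 ± 4.38 after P. gingivalis and 15.2 ± 5.25 in PBS, so it passed the filter through the PBS group and its difference rests on few reads.

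Of the cross-linking genes, Lox and Loxl1 had lower means and Loxl2 was close to equal in both groups. Lox, the founding lysyl oxidase, had 11.4, 19.8 and 29.6 normalized counts in the P. gingivalis libraries, against 25.9, 30.8 and 37.9 in the PBS libraries. All P. gingivalis libraries but replicate 6 lay below the lowest PBS library. Its difference was -0.66 (SE 0.21, limma adjusted p = 0.870), and it narrowed to -0.47 without the 3 libraries with almost no Fabp6. At these levels a library holds 10 to 34 Lox reads in the P. gingivalis group and 25 to 49 in the PBS group. An annotated transcript on the same exons, AC161119.1, cannot be told apart from it without strand information.

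Loxl1, the relative that acts on elastin, had 29.7, 44.9 and 75.3 normalized counts in the P. gingivalis libraries, against 51.9, 61.6 and 75.0 in the PBS libraries. Replicate 4 of the P. gingivalis group was just above the highest PBS library, replicate 6 lay within the PBS range and the other 4 lay below it. The difference was -0.45 (SE 0.22, limma adjusted p = 0.992). Loxl2, which acts on type IV collagen, had 121, 144 and 155 normalized counts in the P. gingivalis libraries, against 118, 145 and 166 in the PBS libraries, a complete overlap. Its difference was -0.04 (SE 0.11, limma adjusted p = 0.994) with a 95% interval of -0.27 to 0.19, and -0.09 without the 3 libraries with almost no Fabp6. Lox lies on chromosome 18 from 52516060 to 52529867, Loxl1 on chromosome 9 from 58287723 to 58313212 and Loxl2 on chromosome 14 from 69608692 to 69695834.

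Sparc, a secreted collagen-binding glycoprotein, had 661, 774 and 1213 normalized counts in the P. gingivalis libraries, against 936, 1034 and 1296 in the PBS libraries. As for Lox and Col8a1, replicate 6 was the one P. gingivalis library within the PBS range. The means were 829 ± 203 after P. gingivalis and 1083 ± 144 in PBS (SD, n = 6 each), and differed by -0.41 (SE 0.14, limma adjusted p = 0.992), and by -0.40 without the 3 libraries with almost no Fabp6. The ratio of Sparc to Col1a2 in the same library was 0.482 ± 0.0368 in the P. gingivalis libraries (range 0.443 to 0.536) and 0.596 ± 0.103 in the PBS libraries (range 0.487 to 0.740). The ratio of Lox to Col1a2 was 0.0117 ± 0.00300 in the P. gingivalis libraries (range 0.00726 to 0.0161) and 0.0172 ± 0.00326 in the PBS libraries (range 0.0118 to 0.0200). In both ratios 3 of the 6 P. gingivalis libraries lay below all PBS libraries, and neither ratio was tested. Sparc lies on chromosome 11 from 55394159 to 55420080.

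**Figure D4:**
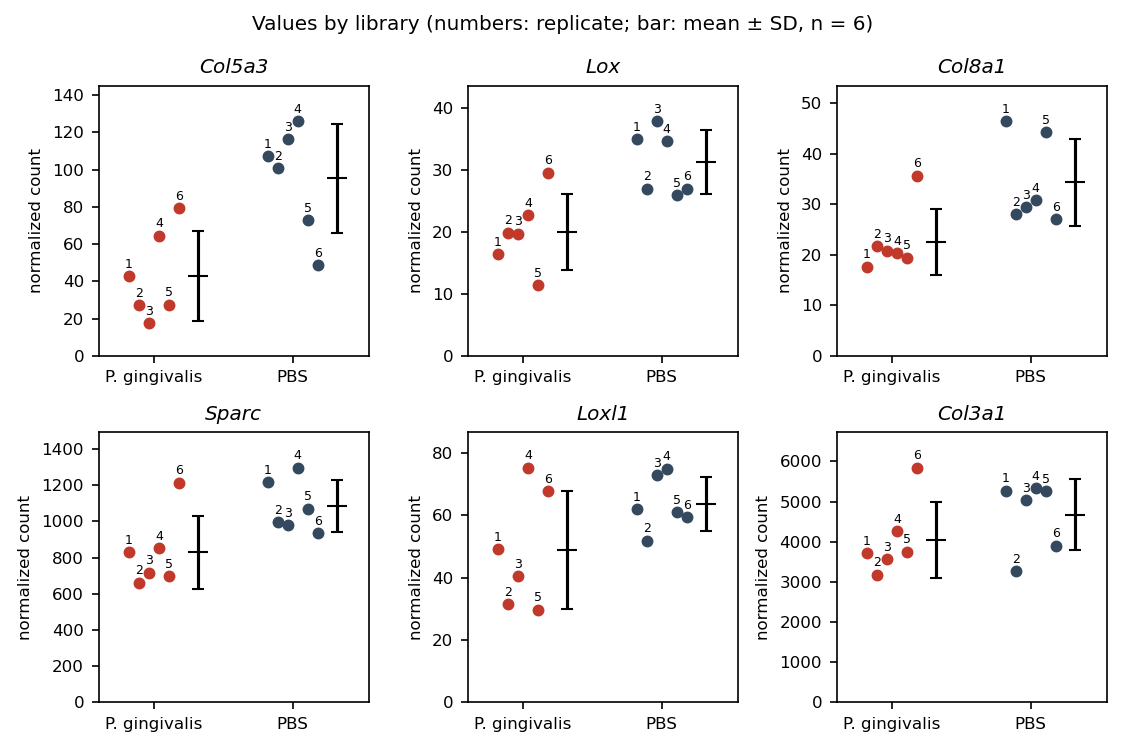
Normalized counts of 6 members in each library, numbered by replicate, with mean ± SD (n = 6) at the side, P. gingivalis in red and PBS in grey. P. gingivalis replicate 6 stands within or above the PBS range in all 6 panels, and the other 5 lie lower for Lox, Col8a1 and Sparc.

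The main fibre-forming chains differed by less than the spread between libraries. Col3a1 had 3184, 3735 and 5845 normalized counts in the P. gingivalis libraries, against 3266, 5142 and 5342 in the PBS libraries, and P. gingivalis replicate 6 was the highest and replicate 2 the lowest of all 12. Its difference was -0.21 (SE 0.17, limma adjusted p = 0.992). Col1a2 had 1233, 1601 and 2594 normalized counts in the P. gingivalis libraries, against 1347, 1877 and 2331 in the PBS libraries and ended in the same pair of libraries. Its difference was -0.12 (SE 0.18, limma adjusted p = 0.992), and the 95% interval of -0.50 to 0.27 corresponds to a ratio of 0.709 to 1.20. Col1a1, the partner of Col1a2 in type I collagen, differed by 0.04 (SE 0.20, limma adjusted p = 0.996), and by -0.04 without the 3 libraries with almost no Fabp6. The ratio of Col1a1 to Col1a2 varied more between libraries than between groups, at 0.499 ± 0.125 in the P. gingivalis libraries (range 0.379 to 0.727) and 0.445 ± 0.0795 in the PBS libraries (range 0.309 to 0.526). It was highest in P. gingivalis replicate 1, at 0.727, and lowest in PBS replicate 1, at 0.309. Col3a1 followed Col1a2 closely, with a ratio of 2.36 ± 0.131 in the P. gingivalis libraries (range 2.24 to 2.58) and 2.53 ± 0.239 in the PBS libraries (range 2.29 to 2.97).

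The remaining 3 tested fibrillar chains had positive differences. Col11a2 differed by 0.19 (SE 0.18), Col24a1 by 0.20 (SE 0.20) and Col27a1 by 0.06 (SE 0.19). Without the 3 libraries with almost no Fabp6, Col11a2 differed by 0.00407 and Col27a1 by 0.18. Of the 9 tested fibrillar chains, 5 had negative and 4 positive differences. Col3a1 lies on chromosome 1 from 45311538 to 45349706, next to Col5a2, which ends in the opposite orientation from 45374331 to 45503282 on the same chromosome. Col1a2 lies on chromosome 6 from 4505618 to 4541543 and Col1a1 on chromosome 11 from 94936224 to 94953042.

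The promoters of 36 of the 48 genes were found in the RefSeq table (GRCm38.p6). Those of Col1a2 and Col3a1 are shown because their levels kept a ratio between 2.24 and 2.97 in all 12 libraries, and those of Col5a3 and Sparc because these genes had lower means. Each runs 5′ to 3′ in the direction of the gene over the 250 bases before the annotated start, or 200 for Col5a3, where another annotated start lies further upstream. Capitals mark matches on either strand to any of 5 motifs. The letters searched were CCAAT for the CCAAT box, then GGGCGG for the GC box that Sp1 binds, then TATAAA for the TATA box. For AP-1 factors they were TGANTCA, and for SMAD proteins of transforming growth factor beta signalling they were CAGACA.
Col1a2 (chr6:4505368-4505617, plus strand): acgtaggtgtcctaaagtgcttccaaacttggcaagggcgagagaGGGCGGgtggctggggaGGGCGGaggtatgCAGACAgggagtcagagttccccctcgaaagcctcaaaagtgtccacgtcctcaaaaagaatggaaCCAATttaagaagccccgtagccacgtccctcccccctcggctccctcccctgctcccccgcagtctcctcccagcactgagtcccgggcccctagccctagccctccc
Col3a1 (chr1:45311288-45311537, plus strand): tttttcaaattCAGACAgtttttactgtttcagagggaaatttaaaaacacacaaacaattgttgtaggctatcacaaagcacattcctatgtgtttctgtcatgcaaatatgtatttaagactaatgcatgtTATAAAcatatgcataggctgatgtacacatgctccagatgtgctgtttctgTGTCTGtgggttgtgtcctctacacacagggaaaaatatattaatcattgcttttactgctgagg
Col5a3 (chr9:20815118-20815317, minus strand): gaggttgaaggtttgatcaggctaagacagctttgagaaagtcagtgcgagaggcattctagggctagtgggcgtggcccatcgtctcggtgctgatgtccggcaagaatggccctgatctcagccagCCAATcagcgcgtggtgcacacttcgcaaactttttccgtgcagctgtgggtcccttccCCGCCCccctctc
Sparc (chr11:55420081-55420330, minus strand): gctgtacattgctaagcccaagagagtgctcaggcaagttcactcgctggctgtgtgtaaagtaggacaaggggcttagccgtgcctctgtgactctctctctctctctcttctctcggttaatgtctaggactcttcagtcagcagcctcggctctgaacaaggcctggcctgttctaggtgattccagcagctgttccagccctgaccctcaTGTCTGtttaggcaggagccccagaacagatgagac
The Col1a2 window held 1 CCAAT, 2 GC and 1 SMAD match, and the Col5a3 window held 1 CCAAT and 1 GC match. The Col3a1 window held 1 TATA and 2 SMAD matches and no GC match, and the Sparc window held 1 SMAD match. Of the 5 motifs, the Col1a2 and Col3a1 windows shared the SMAD letters alone. No 2 motif matches overlapped in these windows. Over windows of 250 bases, GC letters occurred in 21 of the 36 member promoters, or 58.3%, against 32.9% of 27025 promoters in the table. CCAAT letters occurred in 12 of 36, against 34.5% of all promoters, and TATAAA in 5 of 36, against 13.0%. The SMAD letters were in 9 of 36, against 17.1%, and the AP-1 letters in 1 of 36, against 6.87%. A match describes the letters only.

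Type IV collagen genes lie in head-to-head pairs, and the pairs differed in how evenly both sides were used. Col4a1 and Col4a2, the chains of nearly every basement membrane, start from opposite strands of chromosome 8 with annotated ends that overlap by 85 bases (Col4a1 from 11198423 to 11312889, Col4a2 from 11312805 to 11449287). Col4a1 had 861, 1553 and 1778 normalized counts in the P. gingivalis libraries, against 1121, 1704 and 1999 in the PBS libraries, with P. gingivalis replicates 2 and 3 below all PBS libraries. Its difference was -0.20 (SE 0.19, limma adjusted p = 0.992). Col4a2 had 546, 979 and 1153 normalized counts in the P. gingivalis libraries, against 689, 951 and 1131 in the PBS libraries, with the same pair of libraries lowest, and a difference of -0.09 (SE 0.19, limma adjusted p = 0.992). The ratio of Col4a2 to Col4a1 was narrow, at 0.619 ± 0.0332 in the P. gingivalis libraries (range 0.554 to 0.649) and 0.576 ± 0.0253 in the PBS libraries (range 0.548 to 0.615), and 5 of the 6 P. gingivalis libraries lay above the highest PBS value. Of the ratios formed, that of Col4a2 to Col4a1 had the most P. gingivalis libraries outside the PBS range, and no ratio was tested. Reads in the shared first exons cannot be assigned without strand information.

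Col4a3 and Col4a4, chains of specialised basement membranes such as that of the kidney glomerulus, overlap by 114 bases on chromosome 1. They had low levels, at 35.3 ± 13.5 after P. gingivalis and 30.6 ± 2.15 in PBS for Col4a3 and 14.2 ± 3.91 after P. gingivalis and 14.5 ± 3.55 in PBS for Col4a4 (SD, n = 6 each). The widest of the pairs was that of the X chromosome, where the annotated genes are 1274 bases apart. Col4a5 had 213 ± 70.7 after P. gingivalis and 203 ± 41.2 in PBS, while its neighbour Col4a6 had 5.92 ± 1.78 after P. gingivalis and 5.16 ± 3.20 in PBS and was not tested. Per kb, Col4a5 had 32.5 ± 10.8 after P. gingivalis and 31.0 ± 6.30 in PBS, against 0.891 ± 0.268 after P. gingivalis and 0.777 ± 0.482 in PBS for Col4a6. Of the 5 tested type IV genes, 3 had negative and 2 positive differences, from -0.20 to 0.13. Without the 3 libraries with almost no Fabp6, Col4a1 differed by -0.38, Col4a2 by -0.27 and Col4a4 by -0.25, and Col4a3, the highest of the 5 with all libraries, turned negative, at -0.12.

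Type VI collagen was tested in 5 of its 6 genes. Col6a1 had 1326, 1678 and 2409 normalized counts in the P. gingivalis libraries, against 1069, 1795 and 2083 in the PBS libraries, with P. gingivalis replicate 6 highest and PBS replicate 2 lowest. Its difference was 0.03 (SE 0.17, limma adjusted p = 0.996) with a 95% interval of -0.33 to 0.39. Col6a3, the large chain of the filament, had 878, 1221 and 2062 normalized counts in the P. gingivalis libraries, against 1125, 1477 and 1566 in the PBS libraries, with the groups overlapping, and differed by -0.09 (SE 0.18, limma adjusted p = 0.992). Col6a2 differed by 0.06 (SE 0.14) and Col6a5 by 0.03 (SE 0.13), and both were negative without the 3 libraries with almost no Fabp6, at -0.03 and -0.07. Col6a4, which lies beside Col6a5 and Col6a6 on chromosome 9, differed by 0.23 (SE 0.21), and by 0.08 without those 3 libraries. It was highest in P. gingivalis replicates 1 and 5, at 1422 and 1196, and stood at 1008 in PBS replicate 6, the highest of the PBS group. The third gene of that cluster, Col6a6, averaged 5.74 ± 3.02 after P. gingivalis and 10.6 ± 3.04 in PBS, below the filter, and 4 of the 6 P. gingivalis libraries lay below every PBS library.

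Fibril-associated collagens sit on the surface of fibres, and the 4 of 9 that were tested had differences within 1 SE of 0. Col12a1 had 518, 741 and 1284 normalized counts in the P. gingivalis libraries, against 599, 754 and 948 in the PBS libraries. P. gingivalis replicate 6 stood far above the other libraries. Its difference was 0.02 (SE 0.17, limma adjusted p = 0.999), and -0.02 without the 3 libraries with almost no Fabp6. Col14a1, a fibril-associated collagen of fibroblasts, had 433, 673 and 957 normalized counts in the P. gingivalis libraries, against 582, 699 and 761 in the PBS libraries, with P. gingivalis libraries both lowest and highest. Its difference was -0.06 (SE 0.16, limma adjusted p = 0.994), and -0.26 without the 3 libraries with almost no Fabp6. Col16a1 differed by -0.02 (SE 0.17) and Col20a1 by -0.08 (SE 0.14), and both were positive without those 3 libraries, at 0.04 and 0.03.

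Among the multiplexins of basement membrane zones, Col18a1, the source of endostatin, was high in the libraries with almost no Fabp6. It had 251, 307 and 722 normalized counts in the P. gingivalis libraries, against 182, 355 and 425 in the PBS libraries. The 3 libraries with almost no Fabp6 were the 3 highest, at 722 and 533 in replicates 1 and 5 of the P. gingivalis group and 425 in PBS replicate 6, while PBS replicate 2 was lowest, at 182. The group difference was 0.17 (SE 0.27, limma adjusted p = 0.992) with all libraries and -0.12 without those 3, a change of sign. Col15a1 had 118, 224 and 302 normalized counts in the P. gingivalis libraries, against 197, 218 and 238 in the PBS libraries. Its PBS values lay close together, and the P. gingivalis values lay on both sides of them, with replicates 2 and 3 below and replicates 1 and 5 above. Its difference was -0.15 (SE 0.21, limma adjusted p = 0.992), and -0.39 without those 3 libraries. The transmembrane collagens Col13a1 and Col23a1 differed by -0.03 (SE 0.20) and 0.00136 (SE 0.16), and by -0.18 and -0.08 without those 3. Col7a1, of the anchoring fibrils of stratified epithelia, averaged 17.2 ± 6.27 after P. gingivalis and 16.2 ± 3.73 in PBS and differed by 0.02 (SE 0.26), or 0.20 without those 3. Col28a1, of peripheral nerve sheaths, averaged 16.2 ± 8.62 after P. gingivalis and 16.7 ± 4.92 in PBS and differed by -0.15 (SE 0.33), or -0.52 without those 3.

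Of the 13 members below the filter, 1 had groups that did not overlap. Col9a3, a chain of the cartilage collagen type IX, averaged 5.68 ± 0.915 after P. gingivalis and 2.53 ± 1.42 in PBS, and all 6 P. gingivalis libraries, at 4.35 to 6.58, lay above the highest PBS value of 4.32. It was singled out after its values were seen. Of all genes with a read, 0.0735% had higher groups without overlap. The result rests on 4 to 7 reads per P. gingivalis library and 1 to 6 per PBS library, and exons of Tcfl5 overlap the gene, so reads of the pair cannot be told apart without strand information. Among the others were Col11a1 at 2.49 ± 3.15 after P. gingivalis and 4.74 ± 1.34 in PBS, Col25a1 at 11.4 ± 6.10 after P. gingivalis and 8.11 ± 1.93 in PBS, Col17a1 at 7.87 ± 5.27 after P. gingivalis and 6.43 ± 4.86 in PBS and Col22a1 at 7.25 ± 3.84 after P. gingivalis and 5.98 ± 3.30 in PBS. The remaining 4, Col9a1, Col9a2, Col19a1 and Col26a1, had means over the 12 libraries between 0.454 for Col26a1 and 5.40 for Col9a2.

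Libraries of the same group stood apart from each other across many members. P. gingivalis replicate 6 was the highest of the 12 libraries for 14 of the 35 tested members and P. gingivalis replicate 1 for 9. P. gingivalis replicate 2 was the lowest for 14 and PBS replicate 2 for 10. The median log2 deviation of the members from their own 12-library mean was 0.38 in replicate 6 of the P. gingivalis group and -0.47 in its replicate 2, against a PBS range of -0.29 to 0.21. All 44 collagens together took 0.245% ± 0.0824 of normalized counts after P. gingivalis and 0.253% ± 0.0476 in PBS (SD, n = 6 each). The share ran from 0.152% to 0.396% in the P. gingivalis libraries, both ends of the 12, and from 0.185% to 0.289% in the PBS libraries.

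The mesenchymal cell markers had their extremes in P. gingivalis replicates 6 and 2, but did not follow the collagens in every library. The 9 smooth muscle markers summed to 11440.2 to 36561 in the P. gingivalis libraries and 17406 to 28283 in the PBS libraries, with P. gingivalis replicate 6 highest and replicate 2 lowest of all 12. The 7 fibroblast markers summed to 2865 to 6499.5 in the P. gingivalis libraries and 3379 to 5067 in the PBS libraries, with the same pair at the ends. PBS replicate 2, low for many members, had the highest smooth muscle sum of its group, at 28283, and a fibroblast sum of 4385. P. gingivalis replicate 1, high for many members, had sums of 14178 for smooth muscle and 3101 for fibroblasts. None of these markers was at 0 in any library. All 9 smooth muscle markers and 4 of the 6 tested fibroblast markers had negative differences, and none passed. Endothelial markers summed to 812 to 1618 in the P. gingivalis libraries and 804 to 1357 in the PBS libraries. Their sum was highest in P. gingivalis replicate 1 and lowest in PBS replicate 2, followed by P. gingivalis replicate 2. Epithelial markers summed to 47538 to 99253 in the P. gingivalis libraries and 65849.7 to 79679 in the PBS libraries, with P. gingivalis replicate 2 highest. The part of these cell types in the collagen values was not tested.

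**Figure D5:**
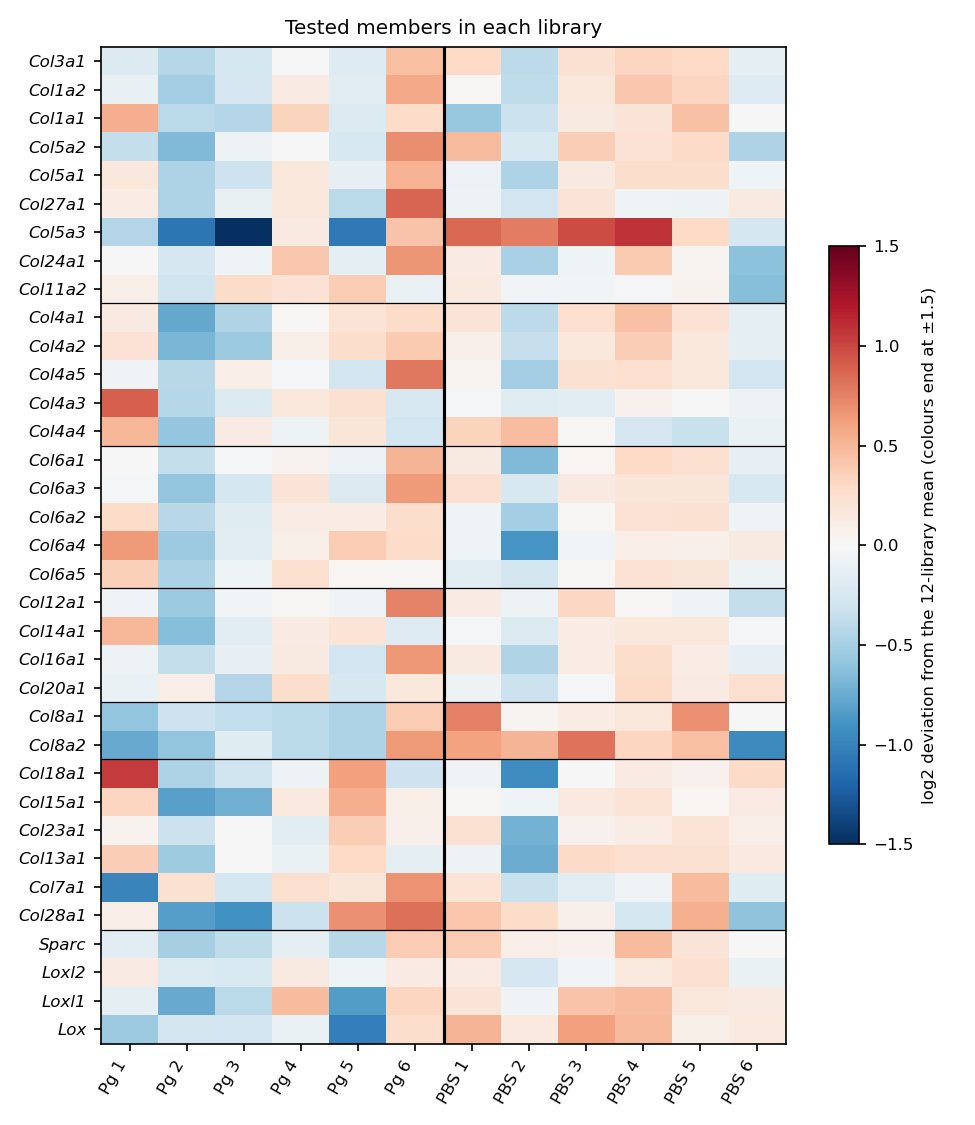
Log2 deviation of each tested member from its own mean over 12 libraries, with P. gingivalis (Pg) libraries left of PBS. P. gingivalis replicate 2 and PBS replicate 2 are blue and P. gingivalis replicate 6 is red across most classes, whereas Col5a3 separates most of the groups' libraries.

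The wider collagen machinery showed no called gene. Over 9 lists of genes that fold, cut, bind, degrade or regulate collagen, 120 of 135 genes were tested, 0 passed in limma, 6 were lower and 1 higher at an unadjusted p under 0.05, against 2.16% lower and 1.57% higher over all genes tested. Of these 120, 79 had negative differences (median -0.09), against 51.1% of all genes tested. The smallest adjusted p was 0.992. Of 20 tested genes for chain modification and folding, 12 had negative and 8 positive differences. P3h4, a partner of lysyl hydroxylation of collagen, averaged 24.1 ± 6.52 after P. gingivalis and 35.8 ± 8.64 in PBS, with a difference of -0.56 (SE 0.22). Tmem38b, a channel of the endoplasmic reticulum needed for collagen processing, averaged 68.2 ± 11.3 after P. gingivalis and 54.3 ± 9.79 in PBS, with a difference of 0.32 (SE 0.15). Of 7 tested genes for procollagen cleavage, 5 were negative. Pcolce2, an enhancer of that cleavage, averaged 11.1 ± 6.94 after P. gingivalis and 20.9 ± 8.66 in PBS, with a difference of -0.91 (SE 0.37). Adamts2, the amino-terminal procollagen protease, averaged 80.6 ± 31.2 after P. gingivalis and 101 ± 12.9 in PBS, with a difference of -0.39 (SE 0.19).

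Genes for proteins that decorate fibres were tested as well. Of 6 tested small leucine-rich proteoglycans, 5 had negative differences. Decorin, Dcn, which coats type I fibrils, averaged 1458 ± 628 after P. gingivalis and 1792 ± 314 in PBS, with a difference of -0.37 (SE 0.22). Ogn, osteoglycin, averaged 376 ± 252 after P. gingivalis and 493 ± 142 in PBS, with a difference of -0.55 (SE 0.34). Of 16 elastic fibre genes and other lysyl oxidases, 10 had negative differences. The microfibril protein Mfap5 averaged 9.56 ± 6.15 after P. gingivalis and 17.4 ± 4.45 in PBS, with a difference of -0.94 (SE 0.33), and it passed the filter through the PBS group. Fbln2, a fibulin, averaged 119 ± 42.1 after P. gingivalis and 157 ± 38.9 in PBS, with a difference of -0.43 (SE 0.22). Of 15 matricellular genes, 11 had negative differences. Osteopontin, Spp1, a secreted ligand of integrins and CD44, averaged 20.3 ± 5.23 after P. gingivalis and 31.9 ± 8.15 in PBS, with a difference of -0.63 (SE 0.21). Smoc1, a relative of Sparc, averaged 42.1 ± 12.1 after P. gingivalis and 54.8 ± 11.4 in PBS, with a difference of -0.40 (SE 0.20).

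In the basement membrane list, 11 of 16 genes had negative differences. Pxdn, the peroxidase that cross-links type IV collagen, averaged 244 ± 78.9 after P. gingivalis and 282 ± 37.4 in PBS, with a difference of -0.26 (SE 0.18). The laminin chain Lama2 averaged 504 ± 183 after P. gingivalis and 559.98 ± 69.3 in PBS, with a difference of -0.21 (SE 0.18). Of 8 tested collagen receptors, 5 had negative differences. Lair1, an inhibitory collagen receptor of leukocytes, averaged 119 ± 44.7 after P. gingivalis and 92.2 ± 18.7 in PBS, with a difference of 0.31 (SE 0.23). The integrin chain Itga11 averaged 83.2 ± 16.2 after P. gingivalis and 90.3 ± 15.1 in PBS, with a difference of -0.12 (SE 0.15). Of 17 tested matrix proteases and inhibitors, 12 had negative differences. Mmp23, a membrane-bound metalloproteinase, averaged 41.8 ± 12.3 after P. gingivalis and 57.2 ± 11.0 in PBS, with a difference of -0.46 (SE 0.19). Mmp11, a secreted metalloproteinase, averaged 22.9 ± 5.84 after P. gingivalis and 31.0 ± 6.68 in PBS, with a difference of -0.44 (SE 0.21). Of 15 genes of transforming growth factor beta signalling and fibrosis, 8 had negative and 7 positive differences. Smad2, which carries the signal of that pathway to the nucleus, averaged 367 ± 21.4 after P. gingivalis and 403 ± 24.9 in PBS, with a difference of -0.13 (SE 0.07).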

How the data were processed

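RNA-seq of 6 P. gingivalis and 6 PBS libraries was analysed, grouped by the treatment label. Per the submitters' processing notes, HISAT2, Cufflinks, FastQC and DESeq2 were used with GRCm38 (mm10). How reads were counted, with which annotation and strand setting, is not given. The unit of the deposited table is a normalized count, a signal the authors scaled by library, and the values show the scaling: 100% of values were whole multiples of 1 step per library within 0.001 reads, so whole reads were recovered. Every pair of libraries differed by more than sampling noise, with a smallest chi-square per degree of freedom of 7.09.

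Genes with a mean of at least 10 were tested with limma 3.58.1 (trend, R 4.3.3) on log2(normalized count + 1), two-sided, with Benjamini-Hochberg adjustment at 0.05 over 15025 genes. The pseudocount understates changes of weak genes. The steps were tested on simulated data. Alternatives were pseudocounts of 0.5 and 5, no filter, a mean of 50, TMM and upper-quartile scaling, a replicate block, sample weights, edgeR 4.0.16, DESeq2 1.42.0, and leaving out libraries. DESeq2 called 3 genes higher and 30 lower, or 0.0164% and 0.164%, and edgeR 0.0%. Lengths are unions of GENCODE M21 exons, and coordinates and promoters are from RefSeq GRCm38.p6. Exons of 15 members overlap another gene. Values are given per library for the 2 most abundant members of each class, the 4 non-collagens and members at an unadjusted p under 0.05, and for the 2 genes of each further list with the smallest p, of which 1 gene is not reported here. Members and lists were chosen with earlier results of these data known.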

Additional observations from a re-analysis of the deposited data

Results flagged for a closer look

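Among 34 groups of 6 values for the 17 members described library by library, 5 had a library far from the other 5. For a single group chance gives about 1 in 20. The 34 groups come from the same 12 libraries and are not independent, so their count cannot be set against that rate. P. gingivalis replicate 6 was the high library in 4 of the 5 flagged groups. Col12a1 stood at 1284 there, while the rest of its group lay between 518 and 772. Col8a1 was 35.7 there, against 17.6 to 21.7. Col8a2 was 18.3, against 6.30 to 9.86, and Sparc was 1213, against 661 to 853. The remaining value was Col18a1 in PBS replicate 2, at 182, against 336 to 425 in the other PBS libraries.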

How the results depend on the processing

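No alternative called a member. Over all genes, limma called 0 higher and 0 lower, sample weights 1 higher and 19 lower, DESeq2 3 and 30, a pseudocount of 5 gave 1 lower, and leaving out the 3 libraries with almost no Fabp6 gave 1 higher. Leaving out 1 library gave 0 to 1 higher and 0 to 52 lower, of which omitting P. gingivalis replicate 6 gave 1 higher and 52 lower, P. gingivalis replicate 2 gave 1 lower, PBS replicate 5 gave 7 lower and PBS replicate 6 gave 1 higher. Of the 17 members described in full, 9 kept their sign in every alternative, among them Col5a3, Lox, Loxl1, Sparc, Col8a1, Col8a2 and Col3a1. The adjusted p over alternatives ran from 0.063 to 0.9999 for Sparc and from 0.0942 to 0.9999 for Col5a3. The sign of Col6a1 turned with sample weights (-0.11). That of Col12a1 turned with TMM scaling (-0.0115), with sample weights (-0.0898) and without the 3 libraries (-0.0213), and that of Col18a1 without the 3 libraries (-0.12). The cause was not tested. With 1 library left out, differences that changed sign ran as follows: Col4a2 from -0.18 to 0.0336, Col6a1 from -0.10 to 0.10, Col6a3 from -0.23 to 0.0205, Col12a1 from -0.13 to 0.13, Col14a1 from -0.16 to 0.0675, Col18a1 from -0.0202 to 0.28, Col15a1 from -0.27 to 0.000200, Loxl2 from -0.0924 to 0.00530. With the replicate number as a block, limma called 0 genes and 5 members had an unadjusted p under 0.05. Same-numbered libraries did not deviate together (correlations from -0.542 to 0.081, and 0 of 12 libraries correlated best with their own number). Whether they shared a batch cannot be told from these correlations. TMM scaling shifted the median of all genes to -0.0303, and 24 of the 35 members then had negative differences. Sample weights gave 29 negative (median -0.13) and 8 members at an unadjusted p under 0.05. The filter at a mean of 50 left Lox, Col8a1 and Col8a2 without a value. Depth limits the 13 untested members, none of which exceeded 23 reads in a library.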
